A study of Mus musculus with 7 samples.

Results

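The respiratory chain genes described here encode the subunits of complexes I to V of the inner mitochondrial membrane, together with assembly factors that share their name prefixes. Members were taken by symbol: names that start with Nduf, Uqcr, Atp5 or Cox4 to Cox8, the genes Sdha to Sdhd and Cyc1, and the 13 protein genes of the mitochondrial genome. Of 108 genes that matched, 2 pseudogene symbols and 7 genes with under 100 counts over all libraries were dropped, which left 99 of the 35976 genes in the table. Of the members, 90 are nuclear and 9 are encoded in mitochondrial DNA. Among the nuclear members, 7 encode the core of complex I, 29 its supernumerary subunits and 7 its assembly factors. Complex II has 4 members, complex III 9, complex IV 16 and complex V 15. The other 3 (Ndufa4l2, Atp5s and Atp5sl) carry the prefixes but are not counted here as subunits.

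Complexes I, III and IV pass electrons from NADH to oxygen and pump protons, complex II feeds in electrons from succinate, and complex V (ATP synthase) makes ATP from the proton gradient. Complexes I, III, IV and V are built from proteins of both genomes, whereas all proteins of complex II are nuclear. The mitochondrial genes are transcribed as long precursors from both strands and cut into single RNAs. Astrocytes hold many mitochondria and also run strong glycolysis.

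The series compared male C57BL/6J mice whose amygdala received adeno-associated virus with Cas9, driven by the GfaABC1D promoter that is active in astrocytes, and either a guide against Egfr (sgEgfr, 3 libraries) or the control guide against Rosa26 (sgRosa, 4 libraries). Both groups carried virus and Cas9, expressed them for more than 2 weeks, and then had tube restraint for 7 days, fear conditioning for 1 day and extinction for 3 days. Cells were freed with papain and enriched with ACSA-2 beads, which bind an astrocyte surface antigen, and 5 ng of total RNA entered each library. No unstressed group and no age of the mice was given in the labels, nor a statement that libraries stem from different mice; p-values measure only the spread between libraries, which may be technical.

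Depth ran from 5852870 to 22579222 counts per library. The counts of sgRosa 3 and sgRosa 4 differed little beyond sampling noise (chi-square per degree of freedom 1.04, against 14.8 to 158 for the 20 other pairs) and were summed to 1 sample, called sgRosa 3+4. Over the members alone the value for sgRosa 3 and sgRosa 4 was 1.26. Each group then had 3 samples. Egfr had a log2 fold change of -0.13 (SE 0.54, edgeR adjusted p = 0.997) in sgEgfr against sgRosa, so no loss of its mRNA was detected, and no source used here gave the position of the cut. The 12 astrocyte markers took 0.405% to 1.04% of counts and were lowest in sgRosa 2, while 12 oligodendrocyte markers took 7.26% to 14.4% and were highest in sgEgfr 2. Transcripts of oligodendrocyte markers were thus plentiful, and values of the members are those of a mixture. In bulk RNA, fewer cells of a type and less RNA per cell cannot be told apart.

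The first result sets the counts of the mitochondrial genes beside their nuclear copies. The mouse genome holds a stretch of nuclear DNA on chromosome 1 that resembles mitochondrial DNA, and it lies in mm10 at chr1:24611535-24616197, on the minus strand. Over 4663 bases it carries 7 annotated pseudogene copies, of COX1, COX2, ATP6, COX3, ND3, ND4L and ND4, and 0 of these 7 copies match a row name of the count table. The sequences show how close the copies are. COX2 (chrM:7013-7696) encodes the copper-binding subunit of complex IV that takes electrons from cytochrome c. Bases 298 to 387 of COX2 and of its copy Gm28661 (chr1:24614885-24615565) are the same, and the first 90 bases of ND3 (chrM:9459-9806), a complex I subunit, differ from those of its copy Gm28438 (chr1:24612775-24613119) at the 1 base in capitals. Sequences are from the transcripts of GENCODE M21 and run 5′ to 3′.
COX2: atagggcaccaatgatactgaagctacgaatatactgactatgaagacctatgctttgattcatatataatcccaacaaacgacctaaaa
Gm28661: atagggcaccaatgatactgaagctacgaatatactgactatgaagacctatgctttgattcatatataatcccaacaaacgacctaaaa
ND3: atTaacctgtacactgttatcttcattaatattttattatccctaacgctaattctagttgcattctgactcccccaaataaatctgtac
Gm28438: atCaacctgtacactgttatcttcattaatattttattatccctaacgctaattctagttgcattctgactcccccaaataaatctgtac

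Along their full aligned length, 681 of 681 bases of the COX2 copy matched the mitochondrial gene. The same held for 783 of 783 bases of the COX3 copy, 678 of 678 of the ATP6 copy and 294 of 294 of the ND4L copy, and 344 of 345 bases of the ND3 copy matched. A read that lies within such a stretch fits both places equally well. To measure this for every member, its transcript was cut into all words of 50 bases, and the words that also stand in an annotated transcript of another gene were counted.

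Mitochondrial genes whose words were nearly all shared had few counts. COX2 shared 100% of its words and gave 4 counts in all: single counts in sgRosa 2, sgRosa 4, sgEgfr 2 and sgEgfr 3, and 0 in the other 3 libraries. ATP6, a subunit of the proton channel of complex V, shared 99.5% and had 23 counts in all 7 libraries together. COX3, the third mitochondrial subunit of complex IV, shared 99.9% and had 19. These 3 genes fell under the limit of 100 counts and are not members. ND4L (98.8% shared, 145 counts) and ND3 (98.0% shared, 1996 counts), both of the membrane arm of complex I, stayed in.

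Genes with few shared words had far higher counts. Per kb of length, ND5 had 249451 counts, the lowest value among the genes with under 10% shared words and over 100 counts, while ND3 had 5736 and ND4L 488. CYTB, the cytochrome b of complex III, shared 0% of its words and had 6508440 counts over the 7 libraries. ND1, which lines the quinone channel of complex I, also shared 0% and had 1134049. ND6, the only one of these protein genes read from the light strand, shared 0% and had 156920, while ND2 (8.19% shared) had 505759 and ND5 (7.61% shared) had 454998. COX1, the catalytic subunit of complex IV, shared 51.1% of its words and had 1225917 counts, and ND4 shared 62.2% and had 1001934. Both had high counts and a large unshared part.

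ATP8 did not follow this order. This small complex V subunit (chrM:7766-7969) has no annotated copy and shared 0% of its words, yet it had 1 count in all. It lies between COX2 and ATP6 and overlaps ATP6 by 43 bases. On chromosome 1, 233 bases without an annotated copy lie between the copies of COX2 and ATP6, where the mitochondrial genome has 230 bases between the genes themselves. The nuclear sequence of that gap was not analysed here. No source used here says how reads that fit several places were counted, and the part of that step in these low counts was not tested.

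**Figure D1:**
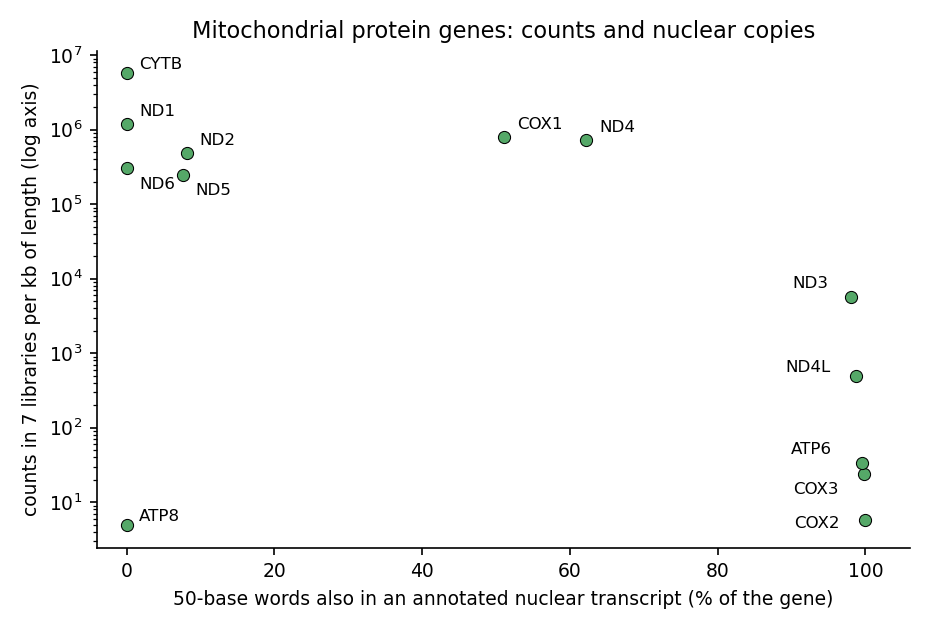
Each point is 1 of the 13 mitochondrial protein genes; the x axis gives the percent of its 50-base words that also occur in an annotated nuclear transcript, and the y axis (log) gives counts summed over 7 libraries per kb of length. COX2, COX3, ATP6, ND4L and ND3 sit at the lower right, CYTB at the upper left, and ATP8 at the lower left.

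A share of counts from mitochondrial genes is thus a share from 9 of 13 genes, and mainly from CYTB, which took 53.7% to 63.3% of mitochondrial counts in every library. The 9 members took 14.6%, 6.10% and 11.2% of all counts in sgRosa 1, sgRosa 2 and sgRosa 3+4. In sgEgfr 1, 2 and 3 they took 8.48%, 10.3% and 13.3%. The means were 10.6% ± 4.29 in sgRosa and 10.7% ± 2.45 in sgEgfr (SD, n = 3 each), and the 3 sgEgfr samples all lay between sgRosa 2 and sgRosa 1. No difference between the guides was visible beside this spread. The ratio of the means (sgEgfr over sgRosa) was 1.00, but it was 0.828 without sgRosa 2 and 1.24 without sgRosa 1.

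The 90 nuclear members together took far less and varied less. Their share was 1.01%, 0.920% and 1.10% in sgRosa 1, 2 and 3+4, and 1.15%, 1.04% and 1.06% in sgEgfr 1, 2 and 3, with means of 1.01% ± 0.0891 and 1.08% ± 0.0560 (SD, n = 3 each). The groups overlapped, with sgRosa 2 lowest and sgEgfr 1 highest. Counting error is small at this depth: the 95% binomial confidence interval (Wilson) of the share in sgRosa 2 ran from 0.916% to 0.924%. There were 14.5, 6.63 and 10.2 mitochondrial counts per nuclear member count in sgRosa and 7.40, 9.85 and 12.6 in sgEgfr, in the same sample order. The sgRosa samples held both the highest and the lowest ratio.

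**Figure D2:**
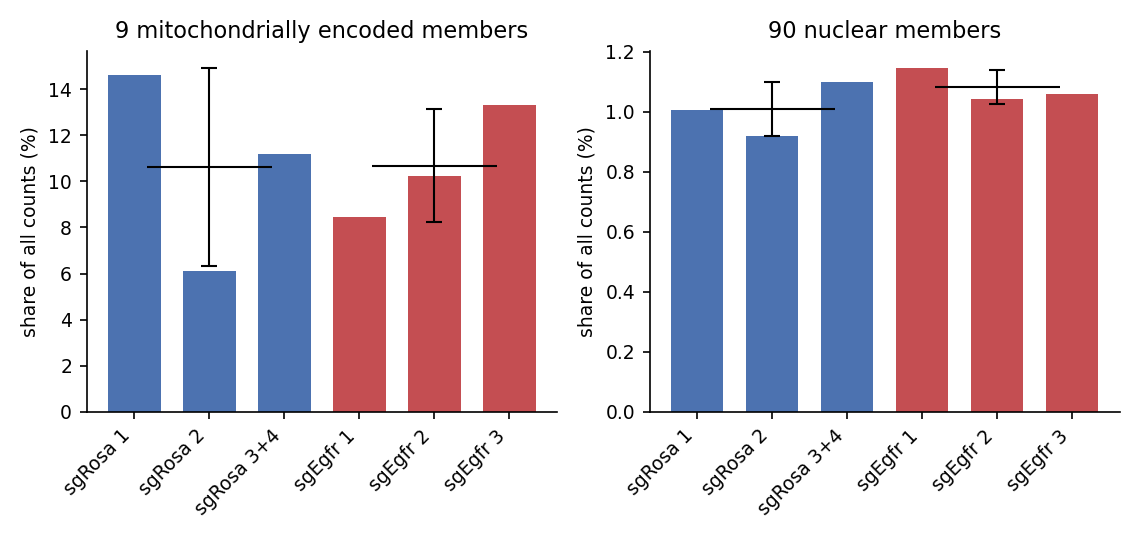
Bars give the share of all counts (%) taken by the 9 mitochondrially encoded members (left) and the 90 nuclear members (right) in each sample, with the mean and SD of each guide group as black marks (n = 3). The mitochondrial share runs from 6.10% in sgRosa 2 to 14.6% in sgRosa 1, and the sgEgfr samples lie within that range.

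Most single mitochondrial genes moved with the whole. Levels from here on are CPM, counts relative to a library total that was scaled with the TMM method. CYTB was at 89381, 34340.2 and 66335 CPM in sgRosa 1, 2 and 3+4, against 44042, 61618 and 83316 CPM in sgEgfr 1, 2 and 3. Both extremes were sgRosa samples, and the log2 fold change was -0.01 (SE 0.52). COX1 was at 16681, 6907 and 12656 CPM in sgRosa against 10639, 13887 and 12172 CPM in sgEgfr, with a log2 fold change of 0.02 (SE 0.40). The sgEgfr samples of COX1 were the closer together, and again all lay inside the sgRosa range.

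ND1 departed a little from this order: it measured 10507, 6032 and 12091 CPM in sgRosa against 9505, 15684 and 12682 CPM in sgEgfr, and its highest samples were sgEgfr 2 and 3. Its log2 fold change was 0.40 (SE 0.38, edgeR adjusted p = 0.997), with overlapping groups. ND2 and ND4, which are membrane arm subunits, had 0.14 (SE 0.37) and 0.07 (SE 0.41), and ND5 had -0.10 (SE 0.45). ND6, from the other strand, measured 2955, 844 and 1367 CPM in sgRosa against 1293, 1601 and 1423 CPM in sgEgfr (log2 fold change -0.26, SE 0.44). Counts of ND6 per count of ND5 ran from 0.279 to 0.412 over the libraries. The 2 genes overlap by 14 bases on opposite strands, and the strand setting of the counting was not given, so reads there cannot be told apart.

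ND3 and ND4L had the highest log2 fold changes of the mitochondrial members, and they were also the ones with nearly all words shared. ND3 was at 11.4, 11.8 and 24.2 CPM in sgRosa against 19.5, 19.2 and 27.5 CPM in sgEgfr (log2 fold change 0.48, SE 0.34). The raw counts of ND4L were 5, 21, 15 and 10 in the sgRosa libraries 1 to 4 and 19, 36 and 39 in the sgEgfr libraries (log2 fold change 0.78, SE 0.59). In both genes sgRosa 1 was the lowest sample, although it was highest for 6 of the 9 mitochondrial members. Without sgRosa 1 the log2 fold changes were 0.30 for ND3 and 0.39 for ND4L. Of the 9, 7 were lowest in sgRosa 2. The highest sample exceeded the lowest by a median of 2.60-fold for mitochondrial members and 1.48-fold for nuclear members.

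No member passed the test between the guides. Of 14936 genes tested with edgeR's quasi-likelihood test, 0% were called at a Benjamini-Hochberg adjusted p under 0.05, and 0 of the 99 members, whose adjusted p lay between 0.997 and 0.998. At an unadjusted p under 0.05 there was 1 member of 99, beside 2.68% of all genes tested. DESeq2 likewise gave 0 calls, with 1 member and 500 of all 14936 genes at an unadjusted p under 0.05. With limma-voom there were 0 calls, 2 members and 418 of all genes. The 95% confidence interval of a typical nuclear member spanned -0.27 to 0.58 on the log2 scale (medians of the lower and upper ends), so small differences were not detectable with these samples.

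The signs of the nuclear members leaned one way. Of the 90 nuclear members 77 had a positive log2 fold change, beside 52.9% of all genes tested, and their median was 0.15, where the median over all genes was 0.02. Of the 9 mitochondrial members 6 were positive, with a median of 0.07. Every sgEgfr sample lay above every sgRosa sample in 11 of the 99 members (11.1%), all nuclear, beside 3.76% of all genes. In 0 members did all sgEgfr samples lie below, beside 3.85% of all genes. Members are not independent of each other, since the same 6 samples enter each of them, and no test was made over the list.

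Of the 90 nuclear members, 48 had their lowest value in sgRosa 2 and 43 their highest in sgEgfr 2. The place of sgEgfr 2 depends on the scaling: its TMM factor was 0.894, the lowest of the 6, and by plain share of counts it was the lowest sgEgfr sample for the nuclear members (1.04%). Of the single libraries left out in turn, sgRosa 2 moved the count of positive signs the most. Without sgRosa 2 there were 58 positive nuclear members with a median of 0.11, and the mitochondrial median changed sign to -0.22. Without sgEgfr 2 alone, 73 were positive, with a nuclear median of 0.10. With both samples left out, 56 nuclear members were positive, the median was 0.04 and the mitochondrial median -0.28. Leaving out sgRosa 3 and 4 raised the nuclear median to 0.23. When samples were scaled by the total count only, 7 nuclear members had all sgEgfr samples above, none of them in complex IV. Groups then overlapped in Ndufa6, Ndufa4, Cox7a2, Atp5j and Uqcrc2, and no longer in Atp5sl. The share of all genes with every sgEgfr sample above was not computed under that scaling.

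Other gene lists leaned with the nuclear members. Of 81 tested cytosolic ribosomal protein genes 77 were positive (median 0.36), and of 77 mitochondrial ribosomal protein genes 59 (median 0.09). Of 10 heat shock genes 8 were positive (median 0.35), with summed shares from 0.136% in sgRosa 1 to 0.233% in sgEgfr 2. Markers of cells other than astrocytes were mostly higher as well: 11 of 11 tested neuron markers (median 0.60), 10 of 10 microglia markers (0.41), 8 of 8 ependymal markers (1.47) and 8 of 10 endothelial markers (0.75) were positive. Summed shares ran from 0.0302% to 0.0536% for neurons and from 0.0161% to 0.0436% for microglia, with overlapping groups. Endothelial shares did not overlap, at 0.00737%, 0.00564% and 0.00473% in sgRosa and 0.00875%, 0.00828% and 0.00745% in sgEgfr. Every sgEgfr sample lay above in 4 of 10 endothelial and 4 of 11 neuron markers, beside 3.76% of all genes. The ependymal share was uneven: it was 0.112% in sgEgfr 3 and 0.0408% in sgRosa 3+4, and at most 0.00972% in the other samples, with sgEgfr 2 the lowest. No list had a marker at 0 in every library. Of 12 oligodendrocyte markers 5 were positive (median -0.08), and of 12 astrocyte markers 7 (median 0.14). Of 8 markers of oligodendrocyte precursors 6 were positive, and of 5 of red blood cells 1. The part of cell mixture and of heat shock in the values of the members was not tested.

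**Figure D3:**
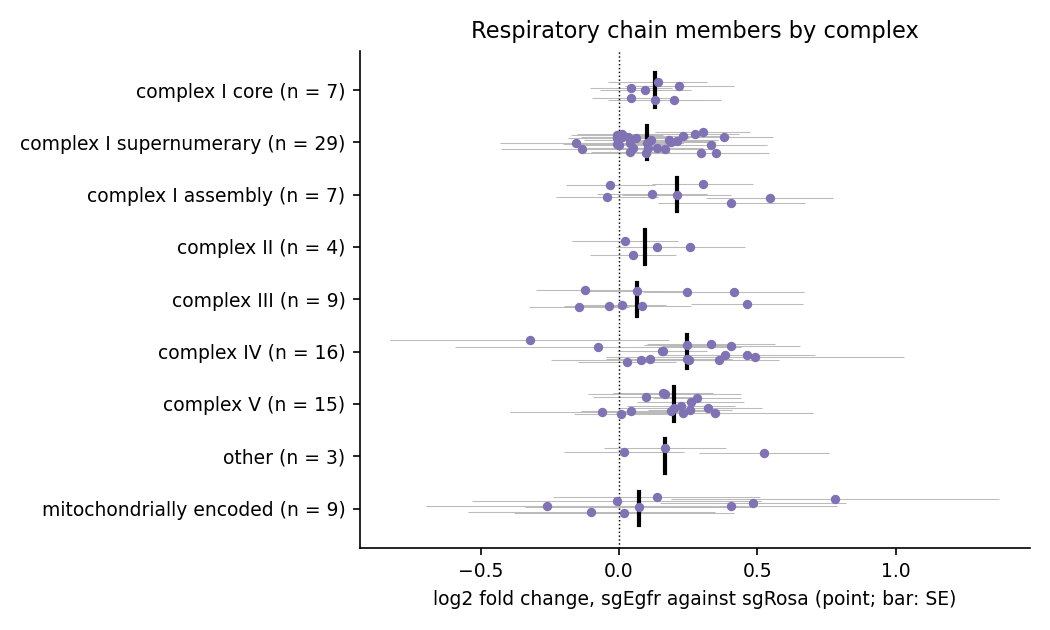
Each point is 1 member, placed by its log2 fold change in sgEgfr against sgRosa (grey bar: SE; black line: median of the class; rows: complexes, with vertical scatter only to separate points). Most nuclear points lie right of 0, with class medians from 0.06 in complex III to 0.24 in complex IV, and most bars cross 0.

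In complex I, all 7 core subunits had positive log2 fold changes (median 0.13), with overlapping groups in each. Ndufv2, an iron-sulfur protein of the NADH-oxidising module and the core subunit with the highest CPM, was at 179.8, 166 and 171 CPM in sgRosa against 167, 174 and 192 CPM in sgEgfr (log2 fold change 0.04, SE 0.14). Ndufs7 and Ndufs8, iron-sulfur proteins of the arm that leads to quinone, had 0.20 (SE 0.17) and 0.22 (SE 0.20). After TMM scaling, core members as a group were highest in sgEgfr 2, where the median stood 0.28 above the mean of the 6 samples on the log2 scale. They were lowest in sgRosa 2 at -0.16. By plain share of counts, sgEgfr 1 (0.0884%) stood above sgEgfr 2 (0.0869%).

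Of the 29 supernumerary subunits of complex I, 24 were positive, with a lower median of 0.10. No difference was detected for the 2 with the highest CPM: Ndufb8, of the membrane arm, had a log2 fold change of -0.01 (SE 0.17, 95% confidence interval -0.40 to 0.38) and Ndufa13 had 0.04 (SE 0.19, interval -0.41 to 0.49). Ndufab1, the acyl carrier protein of mitochondria, was at 20.2, 26.6 and 22.6 CPM in sgRosa against 28.1, 34.2 and 27.9 CPM in sgEgfr. Its groups did not overlap (log2 fold change 0.38, SE 0.18), with an unadjusted edgeR p of 0.0687 and an adjusted p of 0.997. Ndufab1 shared 31.2% of its words with other genes, so its count may depend on how such reads were treated. Ndufb3, of the membrane arm, had 0.35 (SE 0.19), and its sgEgfr 3 value of 33.2 CPM lay below the 36.4 CPM of sgRosa 3+4. The other supernumerary subunits without overlap were Ndufa6 and Ndufc2, though Ndufa6 overlapped when scaled by total count only.

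The assembly factors of complex I held the member with the smallest p. Ndufaf5, a hydroxylase that acts on Ndufs7 during assembly, was at 9.03, 8.47 and 9.79 CPM in sgRosa against 12.5, 15.4 and 11.9 CPM in sgEgfr. The means were 9.10 ± 0.666 and 13.3 ± 1.85 CPM (SD, n = 3 each). This is a difference of 0.54 on the log2 scale (SE 0.23), with a 95% confidence interval of 0.01 to 1.08. Its unadjusted edgeR p was 0.0477, and its adjusted p was 0.997. Ndufaf1 (0.30, SE 0.18) and Ndufaf6 (0.41, SE 0.26) also had sgEgfr samples that all lay above the sgRosa samples, while Ndufaf4 and Ndufaf7 had log2 fold changes of -0.03 and -0.04. So 3 of the 7 assembly factors were among the 11 members without overlap, where 3.76% of all genes had every sgEgfr sample above. These were named after their values were seen, and no test was made over the class.

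No subunit of complex II, which also belongs to the TCA cycle, moved beyond the spread between samples. Its flavoprotein Sdha was at 477, 342 and 437 CPM in sgRosa against 394, 461 and 419 CPM in sgEgfr, and the sgRosa samples held both the highest and the lowest value. Its log2 fold change was 0.02 (SE 0.19), and Sdhb, the iron-sulfur subunit, had 0.05 (SE 0.15). The membrane anchors Sdhc and Sdhd had 0.26 (SE 0.20) and 0.14 (SE 0.15). All 4 were positive, with a median of 0.09. Of the 16 TCA cycle enzymes listed beside them, 13 were positive, with a median of 0.08.

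Complex III had the lowest class median, 0.06, with 6 of 9 members positive. Uqcrc1, one of its core proteins, was at 340.4, 310.5 and 358 CPM in sgRosa against 308, 362 and 314 CPM in sgEgfr (log2 fold change -0.03, SE 0.16), and the groups overlapped throughout. Uqcrb, which contacts the quinone site, was at 36.3, 48.5 and 56.5 CPM in sgRosa against 66.1, 73.8 and 55.1 CPM in sgEgfr. All but sgEgfr 3 lay above the sgRosa samples (log2 fold change 0.46, SE 0.20, edgeR unadjusted p = 0.0538, adjusted p = 0.997). Uqcrh, the hinge protein beside cytochrome c1, had 0.41 (SE 0.25), while Cyc1, cytochrome c1 itself, had 0.01 (SE 0.16). The core protein Uqcrc2 was the only member of complex III without overlap (0.25, SE 0.16), though sgRosa 3+4 and sgEgfr 3 both rounded to 118 CPM. Its groups overlapped when scaled by total count only. Uqcrb shared 43.2% of its words with other genes, mostly processed pseudogenes, and its count may depend on how such reads were treated.

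As a share of all counts from nuclear members, complex III made up 13.7%, 13.5% and 13.3% in sgRosa and 12.8%, 12.5% and 12.9% in sgEgfr. It was the only one of the 8 nuclear classes whose shares did not overlap between the guides, with means of 13.5% ± 0.192 and 12.7% ± 0.234 (SD, n = 3 each). Its share of all counts was nearly level, at 0.136% ± 0.0114 in sgRosa and 0.138% ± 0.00853 in sgEgfr. Complex IV made up 16.9% ± 1.46 and 18.6% ± 0.902 of nuclear member counts and complex V 21.3% ± 0.182 and 22.1% ± 0.732, with overlapping groups. The class was singled out from 8 after the values were seen, and no test was made.

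Complex IV had the highest median among the complexes, 0.24, with 14 of 16 members positive. Cox4i1, the usual isoform of subunit 4, was at 462, 405 and 577 CPM in sgRosa against 546, 651 and 521 CPM in sgEgfr (log2 fold change 0.25, SE 0.21). Cox6b1, which faces the intermembrane space, was at 68.9, 73.9 and 109.9 CPM in sgRosa against 125, 137 and 86.8 CPM in sgEgfr (0.46, SE 0.25, edgeR adjusted p = 0.997). In both genes sgRosa 3+4 stood with the sgEgfr samples, and sgRosa 1 and 2 below them. Cox5a had 0.36 (SE 0.22) and Cox6a1 0.40 (SE 0.25), with the same 2 samples lowest. Cox7a2 and Ndufa4, a subunit of complex IV despite its name, did not overlap after TMM scaling, but did when scaled by total count only. For Cox7a2, sgRosa 3+4 (112.4 CPM) and sgEgfr 3 (113.1 CPM) were nearly equal even after TMM scaling. Ndufa4 was at 142, 134 and 151 CPM in sgRosa against 161, 157 and 158 CPM in sgEgfr (0.16, SE 0.14).

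The isoform pairs of complex IV showed the ubiquitous form far above the tissue form in every sample. Levels per kb of transcript were 707 ± 116 CPM per kb for Cox4i1 and 8.69 ± 1.88 for Cox4i2, the form known from lung and hypoxia (mean and SD over 6 samples). Cox6a1 stood at 467 CPM per kb and Cox6a2, known from heart and skeletal muscle, at 1.78. Cox6b1 stood at 162 and Cox6b2, known from testis, at 5.64. Among the Cox7a forms, Cox7a2 was at 159 CPM per kb, the supercomplex factor Cox7a2l at 69.8 and the muscle form Cox7a1 at 7.31. Cox8a was at 343 CPM per kb, whereas the muscle form Cox8b had 13 counts in all libraries together and was dropped. Cox6b2, Cox7a1 and Cox6a2 had the widest errors among nuclear members, with log2 fold changes of 0.49 (SE 0.54), -0.08 (SE 0.52) and -0.32 (SE 0.50).

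Ndufa4 stood at 333 CPM per kb and its relative Ndufa4l2, known as a hypoxia-induced gene, at 21.2. Ndufa4l2 was at 18.2, 18.3 and 22.6 CPM in sgRosa against 24.6, 16.3 and 18.9 CPM in sgEgfr, with a log2 fold change of 0.02 (SE 0.22). The sgEgfr samples held both its highest and its lowest value.

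**Figure D4:**
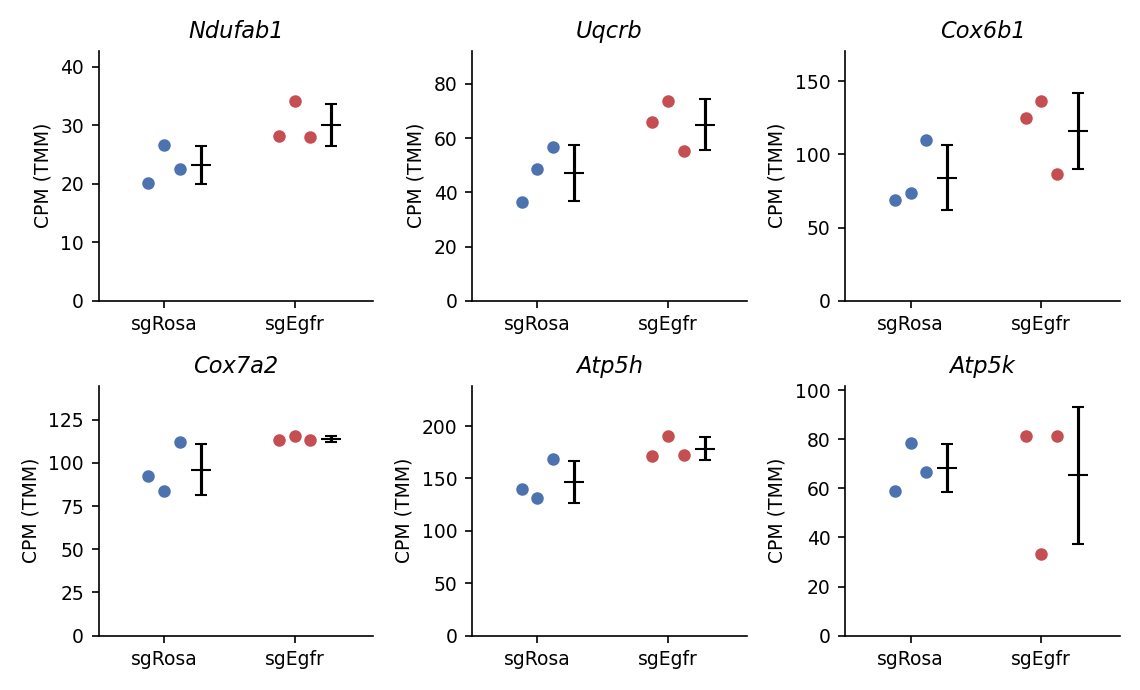
TMM-scaled CPM of 6 nuclear members in each sample (points; sgRosa 1, 2 and 3+4 and sgEgfr 1, 2 and 3 from left to right), with the mean and SD of each guide group beside them (n = 3). Ndufab1, Cox7a2 and Atp5h do not overlap between the guides, Uqcrb and Cox6b1 do, and Atp5k is at 33.1 CPM in sgEgfr 2 and at 81.3 and 81.5 CPM in the other sgEgfr samples.

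In complex V, 14 of 15 members were positive, with a median of 0.20. Of the members of complex V, the catalytic subunit Atp5b and Atp5a1 had the highest CPM. Atp5b was at 455, 393 and 499 CPM in sgRosa against 525, 617 and 470.2 CPM in sgEgfr (log2 fold change 0.26, SE 0.19), and sgEgfr 3 lay inside the sgRosa range. Atp5h, of the peripheral stalk, was at 139.9, 131 and 169 CPM in sgRosa against 171, 191 and 172 CPM in sgEgfr, without overlap, though sgRosa 3+4 and sgEgfr 1 were nearly equal (0.28, SE 0.16, edgeR adjusted p = 0.997). Atp5h shared 50.5% of its words with other genes, so its count may depend on how such reads were treated. Atp5j, also of the stalk, was the other member of complex V without overlap (0.26, SE 0.15), though it overlapped when scaled by total count only.

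Subunit c, the rotor ring of complex V, is encoded by 3 genes with the same mature protein. Atp5g3 was at 155 CPM per kb, Atp5g1 at 85.2 and Atp5g2 at 12.3. Their log2 fold changes were 0.32 (SE 0.19), 0.19 (SE 0.16) and 0.35 (SE 0.35), all with overlapping groups. The order of levels also followed the shared words in part, since Atp5g2 shared 100% of its words with other genes and Atp5g1 56.2%. Atp5l, subunit g, shared 68.5% with 13 genes and was at 11.1 CPM per kb, the lowest level in complex V. The 5 nuclear members with over 50% shared words had a median of 85.2 CPM per kb, and the others 126.6. Over all 90 the rank correlation of shared words with level per kb was 0.05 across genes, which share their libraries, but 53 of them had no shared word. With the members over 30% shared words left out, the nuclear median log2 fold change was 0.13.

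Among the 3 remaining members, Atp5sl, now known as an assembly factor of complex I, was at 12.9, 14 and 20.6 CPM in sgRosa against 20.2, 25.3 and 22.7 CPM in sgEgfr (0.52, SE 0.23, edgeR unadjusted p = 0.0586, adjusted p = 0.997). Only sgEgfr 1 fell below sgRosa 3+4. Atp5s had 0.17 (SE 0.22).

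**Figure D5:**
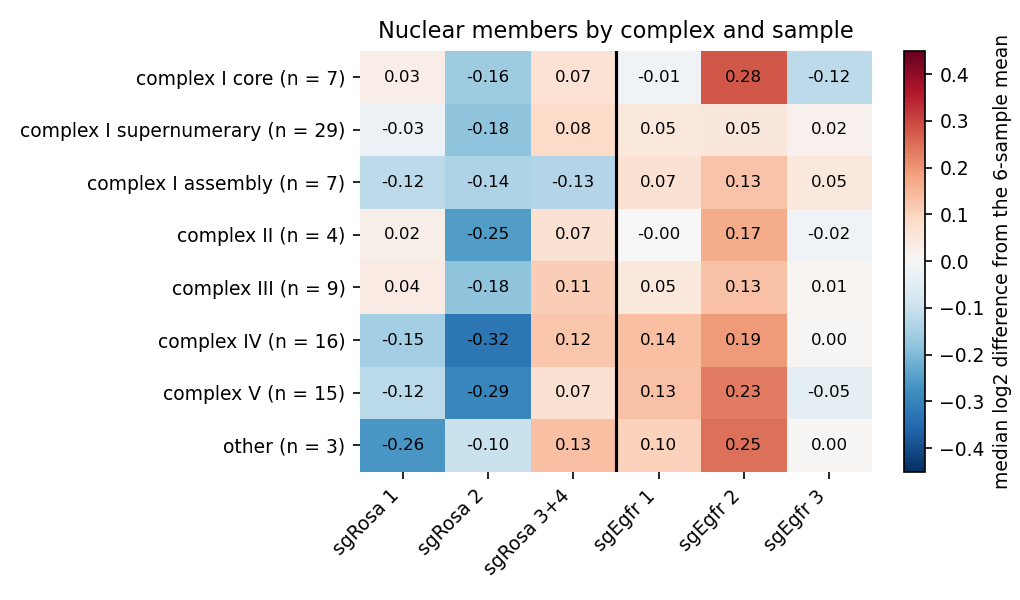
Colour and number give the median, over the members of a nuclear class (rows), of the log2 difference in TMM-scaled CPM between a sample (columns) and the mean of the 6 samples. By plain share of counts, sgEgfr 2 is the lowest sample for the assembly factors (0.0145%). The column of sgRosa 2 is negative in all 8 rows (-0.32 in complex IV) and that of sgEgfr 2 positive in all 8, while sgRosa 3+4 is positive in all rows but that of the assembly factors (-0.13).

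Transcript length went with the pattern in single samples. Members were ranked by the length of 1 transcript each, from 315 to 3632 bases. In sgEgfr 2 the 30 shortest members stood at a median of 0.06 and the 30 longest at 0.22 above the mean on the log2 scale, whereas in sgEgfr 1 the values were 0.20 and 0.04. In sgRosa 1 short members were at -0.20 and long ones at 0.01, in sgRosa 2 at -0.20 and -0.16, and in sgRosa 3+4 at 0.15 and -0.01. In sgEgfr 3 they were at 0.07 and -0.04. Atp5k, subunit e of complex V, Ndufa3 and Ndufc1 are short members that were lowest in sgEgfr 2, at 33.1, 64.9 and 83.2 CPM. These 3 were picked after their values were seen. The length limits of these member groups were also applied to all 13046 genes with a length. Genes of at most 638 bases stood at a median of -0.27 in sgRosa 1, 0.15 in sgEgfr 1 and 0.07 in sgEgfr 2. Genes over 1091 and up to 3632 bases stood at -0.03, 0.02 and 0.04. In sgEgfr 2 the rank correlation of length with deviation was 0.29 over the members and -0.19 over all genes. In sgRosa 3+4, where it was strongest over the members, it was -0.51 over the members and -0.06 over all genes. The value over all genes covers every length and includes the members, so these correlations are not like for like. The part of length in the guide comparison was not tested.

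Promoters of the nuclear members are known to hold sites for the nuclear respiratory factors. RefSeq promoter windows (GRCm38.p6, 250 bases before to 50 after the start) were matched for 74 of the 90 nuclear members. The NRF1 word, the stretch GCGCA followed directly by its reverse complement TGCGC, reads the same on both strands and stood in 7 of 74 (9.46%), beside 1.07% of 27025 genes. The ETS word CCGGAAG, sought on both strands, stood in 23.0% beside 9.93%, the YY1 word AAGATGGCG in 10.8% beside 1.64%, and the ERR word TCAAGGTCA in 2.7% beside 0.466%. The CCAAT box was near its background, with 44.6% beside 41.1%. Shown are Ndufaf5 (chr2:140170396-140170695, plus strand), the member with the smallest p, and Uqcrc1 (chr9:108936398-108936697, plus strand), whose log2 fold change was -0.03; both carry the NRF1 word, in capitals, just after the start site.
Ndufaf5: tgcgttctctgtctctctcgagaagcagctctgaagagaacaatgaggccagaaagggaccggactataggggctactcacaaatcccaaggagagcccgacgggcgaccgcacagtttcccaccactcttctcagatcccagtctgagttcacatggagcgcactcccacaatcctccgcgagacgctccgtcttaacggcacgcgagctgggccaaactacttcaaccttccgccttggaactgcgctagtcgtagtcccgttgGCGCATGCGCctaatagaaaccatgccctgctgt
Uqcrc1: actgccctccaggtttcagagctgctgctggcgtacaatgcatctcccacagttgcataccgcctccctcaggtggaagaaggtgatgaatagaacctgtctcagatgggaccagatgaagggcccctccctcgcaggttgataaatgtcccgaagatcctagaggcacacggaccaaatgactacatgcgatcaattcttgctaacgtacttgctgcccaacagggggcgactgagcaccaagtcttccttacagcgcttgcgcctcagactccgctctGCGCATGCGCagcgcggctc

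The 7 members with the NRF1 word were Ndufaf5, Ndufa11, Cox6a1, Atp5g2, Uqcrc1, Ndufaf4 and Atp5k. Their log2 fold changes ran from -0.06 in Atp5k to 0.54 in Ndufaf5, with a median of 0.30, and the 67 members without it had a median of 0.14. The first 4 lay between 0.30 and 0.54 and the other 3 between -0.06 and -0.03. A match describes letters in these windows and is not a bound site. Nrf1 itself, the factor that reads this word, was at 22, 26.4 and 23.2 CPM in sgRosa against 28.4, 27.2 and 23.6 CPM in sgEgfr (0.14, SE 0.17), and sgRosa 2 lay between the sgEgfr samples.

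The genes around the chain gave 0 calls too. Of 14 tested transcriptional regulators of respiratory genes 5 were positive (median -0.06). Of 26 genes of mitochondrial DNA expression 14 were positive (median 0.02), near the 52.9% of all genes. Of 38 assembly factors outside the name prefixes 26 were positive (median 0.08), and of 19 genes of the outer membrane and import 12 (median 0.10). All 8 tested nucleotide and phosphate carriers and related proteins were positive (median 0.18), with Atpif1, the inhibitor of ATP synthase, at 0.37 (SE 0.20).

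Of 12 tested genes for electron carriers and coenzyme Q 9 were positive (median 0.15). Coq10a, which binds coenzyme Q, went the other way: it was at 29.1, 40.3 and 26.6 CPM in sgRosa against 23.0, 18.3 and 25.0 CPM in sgEgfr. Every sgEgfr sample lay below every sgRosa sample (log2 fold change -0.53, SE 0.22, edgeR unadjusted p = 0.0414, adjusted p = 0.997). Of 18 glycolysis genes 14 were positive (median 0.10), and their summed share was lowest in sgRosa 2 (0.328%) and highest in sgRosa 1 (0.722%), as was the mitochondrial share.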

How the data were processed

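Whole-number read counts per gene, deposited by the authors without normalisation, were analysed for 7 libraries. Per the submitters' processing notes, reads were handled with fastp 0.23.2, STAR 2.7.5c (build mm10) and featureCounts 2.0.1, with edgeR 3.42.4, FastQC 0.11.9 and MultiQC 1.11 also listed. Not given in the sources used here were the annotation, the strand setting and the handling of reads that fit several genes. At the lowest depth 3 counts stood for 0.513 CPM and at the highest for 0.133 CPM, which covers counting error only.

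Genes kept by filterByExpr (minimum count 10, total 15) were scaled by the TMM method. The quasi-likelihood test (edgeR 4.0.16, R 4.3.3, functions glmQLFit and glmQLFTest) had the guide as its only term, 3 samples against 3, with Benjamini-Hochberg adjustment over 14936 genes. The biological coefficient of variation common to all genes came to 0.386. The script was tested on simulated counts. Deviations of samples used log2(CPM + 0.5).

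Transcripts came from GENCODE M21 (same assembly as mm10): among those of the best APPRIS rank, the one of median length, so levels per kb depend on that choice. Members and lists were chosen with earlier results of these data known. Named genes were all mitochondrial genes, per class the 2 with the highest CPM and the 2 with the smallest p, isoform groups, members with p under 0.05, and up to 3 per other list with the smallest p, of which the text gives only some; 1 member that this rule names is not reported here. Others, such as members whose groups did not overlap and Cyc1, were named after their values were seen. Alternatives were other scaling, no filter and a stricter one, DESeq2 1.42.0, limma-voom (limma 3.58.1), 7 separate libraries, a replicate block and each library left out; added after seeing the data were sgRosa 2 and sgEgfr 2 left out together, and members with many shared words left out.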

Additional observations from a re-analysis of the deposited data

How the results depend on the processing

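No member was called under any of the 18 alternatives. The count of members at an unadjusted p under 0.05 was 1 with edgeR and all samples, and ran from 0 to 5 when single libraries were left out. It was 5 of 99 without sgEgfr 3, beside 684 of 15189 genes tested. Without sgRosa 3 and 4 it was 9 of 99, beside 960 of 15455 genes tested. Scaling by total count only gave 7 nuclear members with all sgEgfr samples above, against 11, and the share of all genes was not computed under that scaling. No label states that the replicate numbers pair the samples. The correlations of same-numbered samples were -0.11, 0.52 and 0.55, and 2 of 3 correlated best with their own number, which does not settle whether they are paired. With the replicate block, 0 members were called, 2 had an unadjusted p under 0.05, and over all genes 705 did, against 401; the nuclear median was 0.16. The sign reversed in some setting for 19 of the named members and for Egfr, none of them called, and the cause was not tested. With sgRosa 2 and sgEgfr 2 both left out, log2 fold changes were -0.026 (ND1), -0.19 (ND2), -0.28 (ND4), -0.36 (COX1), -0.014 (Ndufs8), -0.13 (Ndufa13), -0.17 (Sdha), -0.056 (Sdhb), -0.018 (Sdhc) and -0.024 (Cox4i2). Without sgRosa 3 and 4 they were 0.032 (CYTB), 0.035 (Ndufb8), 0.016 (Uqcrc1), 0.25 (Cox7a1) and 0.019 (Egfr). With limma-voom they were 0.030 (ND5), 0.039 (CYTB) and 0.18 (Egfr), and with the replicate block 0.039 (ND5), 0.060 (CYTB) and 0.060 (Egfr). CYTB was at 0.0014 with no filter and 0.00039 with the stricter one. With total counts only, COX1 was at -0.022, Sdha at -0.020 and Ndufa4l2 at -0.0050, and with 7 separate libraries Ndufa13 was at -0.022, Sdha at -3.6e-05 and Ndufa4l2 at -0.037. Leaving out single libraries moved the mitochondrial median from -0.22 to 0.38 and moved COX1 from -0.27 to 0.32, CYTB from -0.31 to 0.32, ND1 from 0.16 to 0.57, ND2 from -0.13 to 0.46, ND4 from -0.22 to 0.38, ND5 from -0.45 to 0.33, ND6 from -0.59 to 0.38, Cox4i2 from -0.13 to 0.22, Cox7a1 from -0.63 to 0.24, Egfr from -0.55 to 0.27, Ndufa13 from -0.12 to 0.094, Ndufa4l2 from -0.16 to 0.12, Ndufb8 from -0.11 to 0.065, Ndufv2 from -0.015 to 0.084, Sdha from -0.11 to 0.13, Sdhb from -0.038 to 0.11, Uqcr10 from -0.043 to 0.13 and Uqcrc1 from -0.13 to 0.0076. Leaving out a library leaves 2 samples in its group, except for sgRosa 3 or sgRosa 4, which leaves 3. Depth does not limit most members, but it does limit ND4L, Cox6a2, Cox6b2 and Cox7a1.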
